A study of Ovis aries with 60 samples.

Results

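Sperm DNA methylation was compared between F2 rams that carry the same sire number and F2 rams of the same diet line that carry different numbers. The number after the dot in the title of a ram names its F0 ancestor, and 2 F2 rams were sequenced for each of 10 such numbers, 5 in each diet line. The same-number rams form 10 pairs of the 90 pairs that can be drawn within the diet lines, and the other 80 pairs join rams of different numbers. The 20 rams were 10 of the treatment line and 10 of the control line, and with 20 RNA libraries of the same rams, 10 F0 rams and 10 F1 pools they make up the 60 samples of the series. The pairs were chosen by their numbers alone, and no measured value entered the choice.

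The animals were Polypay sheep, a composite wool and meat breed. Treated F0 rams ate the control diet with an encapsulated methionine supplement from weaning until puberty, and their control twins ate the control diet alone. Methionine is the precursor of S-adenosylmethionine, the methyl donor of DNA methylation. No F1 or F2 animal and no ewe was given the supplement, so that the 20 rams described here all ate the control diet. By the breeding scheme 1 F1 ram per F0 sire was mated with a group of untreated ewes, and rams of 1 number therefore have the same F1 father and F0 grandfather, whereas their mothers are not named. Lambs of 1 F1 ram were also born to the same group of ewes, and what comes from the father, the mothers and the surroundings cannot be told apart in these pairs.

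Most cytosines of mammalian sperm DNA that are followed by guanine (CG) are methylated. Methylation is largely erased and written again in primordial germ cells and, after fertilization, in the embryo, while imprinted genes and some repeats keep it through the wave in the embryo. A bisulfite read shows the methylation state of a single DNA molecule, and a thymine in the DNA of a ram is read as an unmethylated cytosine.

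The table listed 122453 CG cytosines with at least 10 reads in each of the 20 rams, with the strands kept apart, of which 101164 lie on the 26 autosomes and were used. Each ram had between 1747018 and 4148874 reads on them, with a median coverage of 12 to 37 reads, and its mean level lay between 74.1% and 79.8%. Depth was not more alike in same-number pairs: the log2 read numbers differed by 0.28 ± 0.21 (SD, n = 10) within and by 0.28 ± 0.26 (n = 80) between numbers (exact permutation test, p = 0.868). Mean level was not more alike either, with 1.65 ± 1.15 points (n = 10) against 1.88 ± 1.39 points (n = 80; exact permutation p = 0.562). A single control library, the one with the median coverage of 12, stood apart. Its mean squared level difference to rams of other numbers in its line, less the part from counting reads, was 564 points squared. The other ram of its number had 414, and the remaining 18 rams had 309 to 369. The main results below are given with and without this pair.

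Same-number rams were closer to each other than rams of different numbers. The absolute level difference, averaged over the autosomal CG cytosines, was 11.2 ± 2.05 points (SD, 10 pairs) within a number and 12.7 ± 2.70 points (80 pairs) between numbers. Within a number the pairs ran from 8.83 over a median of 10.53 to 14.2 points, and between numbers from 9.87 over a median of 11.9 to 18.8 points. The ranges overlapped, but 4 of the 10 same-number pairs lay below the closest of the 80 other pairs. The difference of −1.56 points was tested against all 893025 ways of drawing the 10 rams of each line into 5 pairs (exact permutation test, two-sided, p = 0.00367). Without the pair that stood apart it was −0.81 points (9 against 64 pairs, exact permutation p = 0.0331).

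Large differences between rams were counted as well. Levels differed by at least 50 points at 3.49% ± 0.396 of the cytosines (10 pairs) within and at 4.89% ± 1.33 (80 pairs) between numbers (exact permutation p = 2.24e-06). The highest same-number pair had 4.45%, close to the median of 4.44% of the other pairs. At a difference of at least 20 points the shares were 16.8% ± 4.88 (10 pairs) and 20.1% ± 6.68 (80 pairs), with an exact permutation p of 0.0174. With 9 numbers, without the pair that stood apart, the share at 50 points was 3.50% within and 4.40% between numbers (exact permutation p = 2.02e-05). The share at 20 points was then 16.2% and 17.6% and no longer passed (exact permutation p = 0.157).

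The same contrast was seen when the rams were described by how they deviate from their line. From each level the mean of the 10 rams of the diet line was subtracted, and the deviations of the rams of a pair were correlated across cytosines. Subtracting a mean over 10 rams by itself sets the average correlation of a line to −0.11. Pearson's r was 0.113 ± 0.141 (10 pairs) within a number, from −0.101 to 0.392, and −0.136 ± 0.102 (80 pairs) between numbers, from −0.321 to 0.175. It was above 0 in 8 of the 10 same-number pairs and in 5 of the 80 others (exact permutation test of the means, p = 7.84e-06). For 14 of the 20 rams, the ram with the most similar deviations among the 9 others of its line was the one of its own number. With that pair left out, r was 0.048 ± 0.096 (9 pairs) against −0.147 ± 0.086 (64 pairs; exact permutation p = 7.05e-05).

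How much of the variation between rams lies between numbers was measured on squared differences, from which the part due to counting a finite number of reads was subtracted. This left 248 ± 47.7 points squared (10 pairs) within and 351.2 ± 88.7 points squared (80 pairs) between numbers. The family share, defined as the percentage by which the former falls below the latter, was 29.3% (exact permutation p = 1.68e-05). It was 21% without the pair that stood apart (9 pairs, exact permutation p = 0.000151). The counting part averaged 86.5 points squared.

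**Figure D1:**
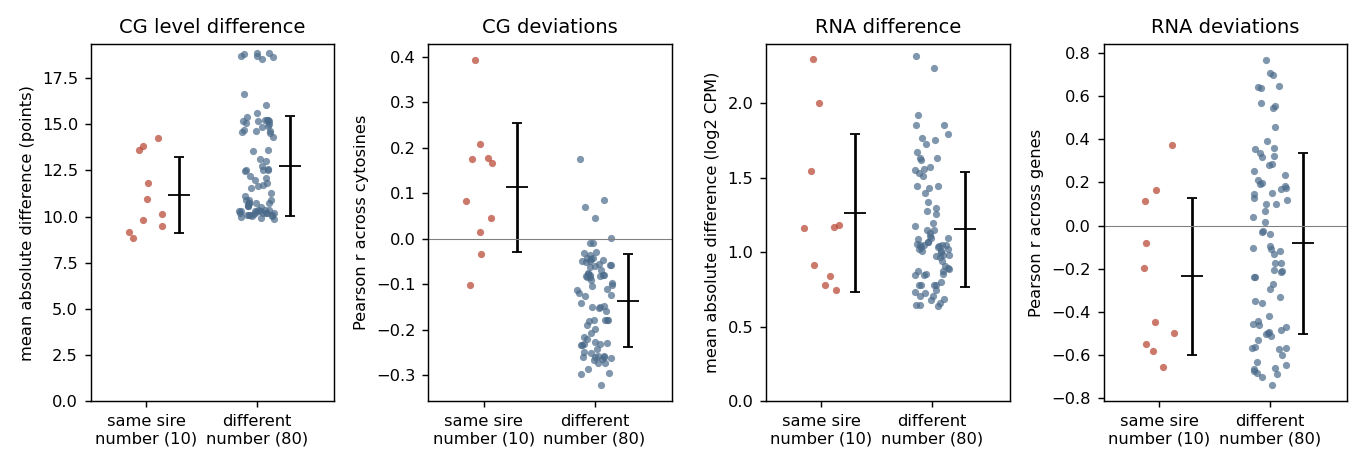
Values of the 10 same-number pairs (red) and the 80 different-number pairs (blue) of F2 rams: mean absolute CG level difference in points, Pearson r of CG deviations, mean absolute difference of log2 CPM and Pearson r of RNA deviations. Points are pairs, bars the mean and SD. CG values of same-number pairs lie lower (11.2 against 12.7 points) and their r higher (0.113 against −0.136) on average; the ranges of same-number and other pairs overlap in all 4 panels.

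Cytosines of low, middle and high level were looked at apart. The autosomal cytosines were sorted into 10 classes by their mean level over the 20 rams, and 50549 of them, 49.97%, fell into the class from 90% to 100%. Same-number rams differed less in each of the 10 classes. At mean levels of 30% to 40% the values were 20.04 ± 3.43 points (10 pairs) within and 23.5 ± 4.46 points (80 pairs) between numbers (exact permutation test with Benjamini-Hochberg adjustment over 10 classes, p = 0.00189). At 60% to 70% they were 19.9 ± 1.08 points (10 pairs) and 22.8 ± 1.75 points (80 pairs), with an adjusted p of 5.6e-06 in the exact test. Leaving out the pair that stood apart made the differences smaller, from −3.50 to −2.02 points at 30% to 40% and from −2.85 to −2.39 points at 60% to 70%. In nearly unmethylated cytosines, under 10%, the pairs differed by 5.86 ± 1.03 points (10 pairs) and 6.77 ± 0.825 points (80 pairs), with an adjusted p of 2.52e-05 in the exact test.

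The class from 90% to 100% was the exception. There the pairs differed by 5.49 ± 2.08 points (10 pairs) and 5.96 ± 2.46 points (80 pairs), which did not pass the exact permutation test (p = 0.0997). Without the pair that stood apart the sign turned, with 5.12 points within and 5.04 points between numbers (exact permutation test, adjusted p = 0.611). Its family share fell from 37.3% to −4.15%, while in the 9 lower classes the share lay between 20.8% and 32.9% with all pairs and between 16.1% and 25.1% without that pair. Correlation of deviations passed in all 10 classes with all pairs and in 9 without it. The absolute difference passed in 9 and in 7. Classes from 20% to 90% held most of the whole family difference in squared levels, with 7.7% to 15.6% of it per class, and the class from 90% to 100% held 8.58% of it with its 49.97% of the cytosines.

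**Figure D2:**
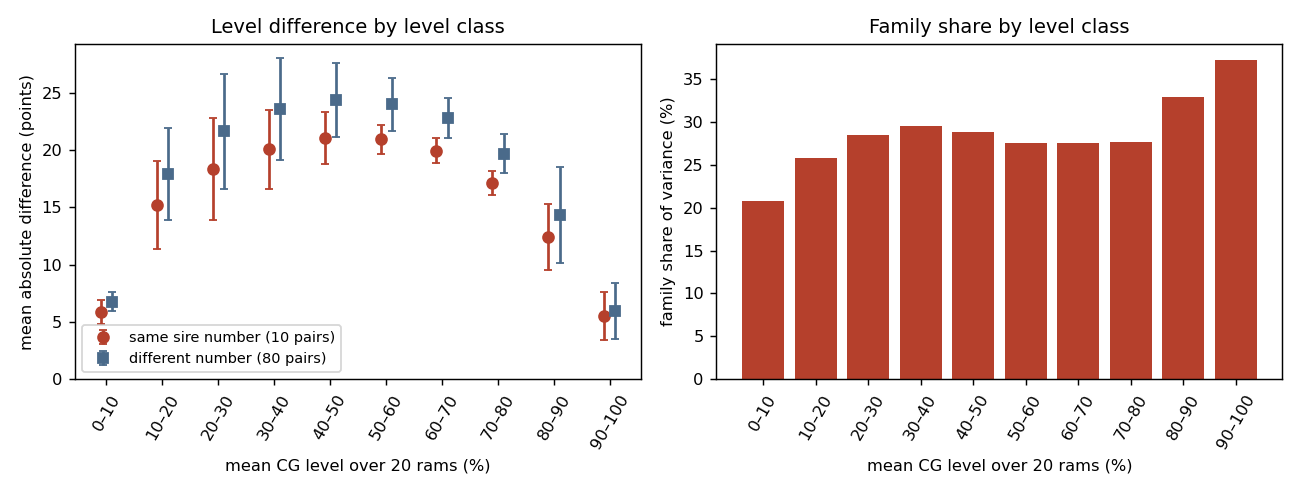
Left, mean absolute CG level difference in points of the 10 same-number pairs (red) and the 80 different-number pairs (blue) by class of mean level over the 20 rams, with the SD over pairs. Right, family share of the squared difference in percent, from 20.8% in the class of lowest level to 37.3% in the highest, which is −4.15% without the pair that stood apart.

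A part of the cytosines took very different levels in different rams. At 6660 autosomal CG cytosines, 6.58% of all, at least 2 rams were below 20% and at least 2 above 80%. This choice by itself places values at both ends. Levels at these cytosines were not spread evenly: 22.4% of the values lay at 0 to 10%, 13.4% at 40% to 50%, 13.1% at 50% to 60%, 23.8% at 90% to 100% and 0.995% at 10% to 20%. Each ram was given 1 of 3 states at each of them, below 20%, from 20% to 80%, and above 80%. Same-number rams were in the same state at 46.4% ± 2.62 of the cytosines (10 pairs), from 42.6% to 51.0%. Rams of different numbers shared the state at 39.3% ± 1.66 (80 pairs), from 35.6% to 44.3%. Opposite states, with 1 ram below 20% and the other above 80%, were found at 6.0% ± 0.831 within and at 12.1% ± 1.52 between numbers. Both differences had p = 1.12e-06, the smallest that the exact permutation test can give, since no other drawing into pairs reached them. Leaving out any 1 of the 10 numbers changed the difference in shared states from 7.11 points to no less than 6.64 points.

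At the other 94504 autosomal cytosines the absolute difference was 9.78 ± 2.15 points (10 pairs) within and 10.99 ± 2.88 points (80 pairs) between numbers (exact permutation p = 0.0308), and the family share was 30.03%, beside 28.2% at the 6660. These values rested in large part on the pair that stood apart. Without it the other cytosines had 9.49 points within and 9.91 points between numbers, which did not pass (exact permutation p = 0.278), and a family share of 15.7% (exact permutation p = 0.033). Their r was then −0.006 within and −0.138 between numbers (exact permutation p = 0.00306). At the 6660 the levels without that pair differed by 31.1 and 37.3 points, with a family share of 27.6%, beside 31.1 and 37.5 points with it. Sorted by the spread between the 20 rams beyond counting, the 46532 cytosines with an SD under 5 points gave no difference that passed the exact permutation test (5.32 against 5.50 points, p = 0.295). The 5301 cytosines with an SD of 30 points or more gave 32.0 against 39.1 points (exact permutation p = 1.12e-06). With all pairs the classes of 5 to 10 and 10 to 20 points had an exact permutation p of 0.0493 and 0.0368. The p-values of the spread classes were not adjusted over these classes. A small spread by itself keeps the absolute difference small. The family share was 46.3% under 5 points (exact permutation p = 0.113) and 28.9% at 30 points or more (exact permutation p = 1.12e-06). Without the pair that stood apart, the 3 classes with an SD under 20 points did not pass (exact permutation p of 0.363 to 0.952), and the 2 classes above it did, with p = 1.01e-05, the smallest that the exact permutation test can then give.

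Cytosines outside CG, where sperm carries little methylation, were examined in the same rams. The context is called CHG or CHH, where H is any base but guanine. Over 1347887 autosomal CHG cytosines the mean level was 0.538%, and over 5751840 CHH cytosines 0.519%. A small part stood out: 2633 CHG cytosines (0.195%) and 11330 CHH cytosines (0.197%) had a mean level of at least 10%, with averages of 38.3% and 35.2%. At these, r of the deviations was 0.136 ± 0.060 (10 pairs) against −0.142 ± 0.045 (80 pairs) for CHG, and 0.134 ± 0.053 against −0.142 ± 0.040 for CHH. All 10 same-number pairs were above 0 in both contexts, and both differences had the smallest p of the exact permutation test, 1.12e-06. The family share was 25.9% in each. With 9 numbers, leaving out the pair that stood apart, the differences in r were 0.281 and 0.276, beside 0.278 and 0.276 with it.

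Levels at the CHG and CHH cytosines with both extreme states fell into the same 3 groups as in CG. The low and the high group follow in part from this choice of cytosines, as they do in CG. Among 991 such CHG cytosines, 30.6% of the values were at 0 to 10%, 12.6% at 40% to 50%, 12.1% at 50% to 60%, and 18.97% at 90% to 100%. A reference CHG or CHH cytosine that is followed by guanine in the DNA of a ram is a CG cytosine in that ram, and a thymine is read as unmethylated. The part of DNA sequence in the shared levels was not tested, since no genotypes were used here. Over all CHG and CHH cytosines the differences in r were smaller, 0.110 and 0.113, and had the same smallest p of 1.12e-06 in the exact permutation test.

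**Figure D3:**
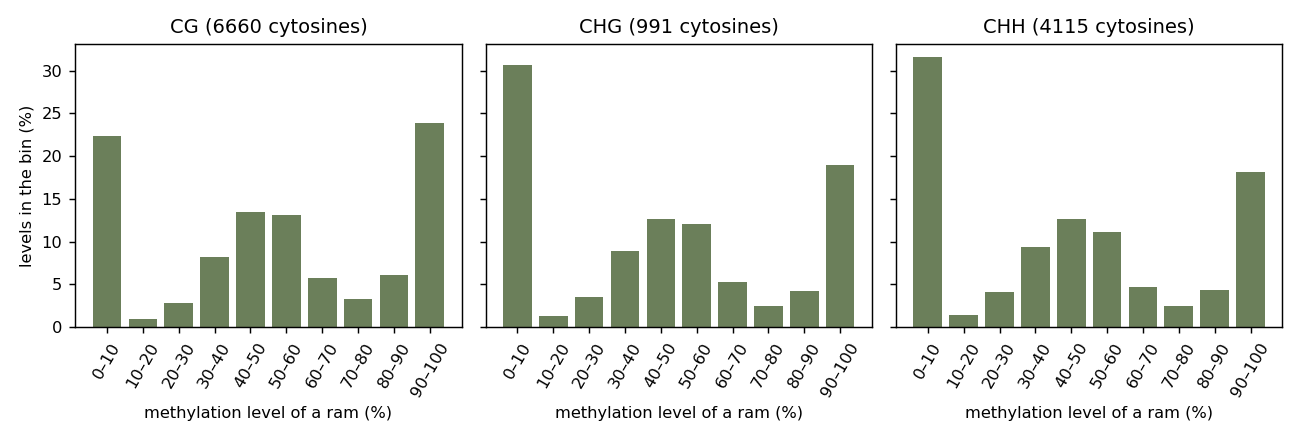
Methylation levels of single rams at autosomal cytosines where at least 2 of the 20 rams were below 20% and at least 2 above 80%, in bins of 10 points, as a percentage of all levels in the context (6660 CG, 991 CHG and 4115 CHH cytosines). In each context the bars peak at both ends and around 50%. The choice of cytosines by itself places levels at both ends.

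The similarity was spread over the genome. On each of the 26 autosomes the absolute difference was lower and r higher within a number, and all 26 passed the exact permutation test with Benjamini-Hochberg adjustment over chromosomes in both measures. The family share ran from 23.9% on chromosome 11 over a median of 28.0% to 44.8% on chromosome 14. Without the pair that stood apart, both measures kept their direction on all 26 chromosomes, but the absolute difference passed on 5 and r on 24. Single pairs varied over the chromosomes: of the 260 values of r for a same-number pair on a chromosome, 72.7% were above 0, from −0.306 to 0.585, beside 17.02% of 2080 values of the other pairs. In 9 of the 10 same-number pairs some chromosomes were below 0 and others above.

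**Figure D4:**
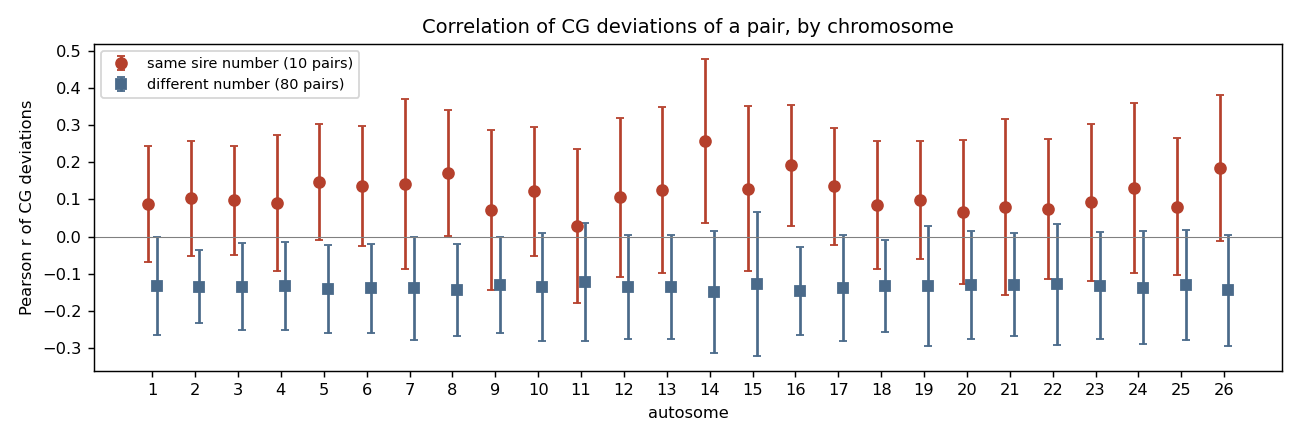
Pearson r of CG deviations of a pair of rams on each autosome, mean and SD over the 10 same-number pairs (red) and the 80 different-number pairs (blue). The red mean is above the blue mean on all 26 chromosomes, with the widest gap on chromosome 14 (0.258 against −0.149).

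Neighbouring cytosines were compared to see over which distance rams of a number share their deviations. The deviation of a ram at a cytosine was multiplied with that of the other ram of the pair at another cytosine, and the products were averaged by distance. Dense groups of cytosines weighed heavily: 20 windows of 10 kb with more than 20 listed cytosines each held 1753 cytosines with a mean coverage of 200.0 reads, against 26.4 elsewhere. With all cytosines, the mean product between 1 and 10 kb was 56.8 points squared within and −26.9 between numbers, which did not pass the exact permutation test adjusted over 8 distances (p = 0.0963). The within-minus-between difference was then 45.3 points squared at 2 to 100 bases, 80.6 above that up to 1 kb and 83.8 at 1 to 10 kb. No distance beyond the same cytosine passed with all cytosines (adjusted p of 0.0963 to 0.127 in the exact test). Outside the dense windows the mean product between 1 and 10 kb was 6.33 within and −4.07 between numbers (adjusted p = 0.0647 in the exact test). When the mean deviation of each ram in each level class was also removed, the products were 2.68 and −1.97 and the difference passed (exact permutation test, adjusted p = 0.01). Both changes were chosen after the values were seen.

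With both changes the shared part was 45.6 points squared at the same cytosine, as within-minus-between difference, and 51.4 at the 61 pairs of cytosines 1 base apart. Beyond that it became smaller with distance, which with all cytosines it did not do from 2 bases up to 10 kb. It was 10.55 at 2 to 100 bases, 8.04 above that up to 1 kb, 2.18 at 10 to 100 kb and 0.798 at 100 kb to 1 Mb, and these passed the adjusted exact permutation test (the largest adjusted p was 0.0447). At 1 to 10 Mb it was 0.116 (adjusted p = 0.118 in the exact test). Single pairs varied widely about these values. At 10 to 100 kb the same-number pairs ran from −2.22 to 11.3 points squared, about a mean of 1.27. At 100 kb to 1 Mb they ran from −0.817 to 4.71, about a mean of 0.467. Values by distance are not given without the pair that stood apart, and how far a single pair carries them was not tested. For a share, the mean product of a ram with itself at a distance, less the mean product between numbers, was taken as the base. Of this base the family part was 27.6% at the same cytosine and 27.1% to 37.5% at the other distances.

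Single cytosines were then tested for differences between the numbers within the lines. The moderated F test of limma passed 1800 of 122453 listed CG cytosines, 1.47%, at a Benjamini-Hochberg adjusted p of 0.05, of which 1780 were autosomal and lay on all 26 autosomes. The autosomal count depended on the settings: it was 483 when the pair that stood apart was left out, 1023 and 1165 without 2 other numbers, 3088 and 3937 without another 2, 258 on the arcsine square root scale and 0 with a quasi-binomial logistic test on the reads, whose smallest adjusted p was 0.0738 and which had 16450 cytosines (13.4%) at an unadjusted p under 0.05. The counts are therefore a description of cytosines to look at. Of the 1780, 707 (39.7%) had 1 pair with both rams at least 20 points from the median of all rams, on the same side, and no other ram as far away. At all autosomal cytosines this pattern had a share of 2.11%. The F test favours cytosines where the rams of a number agree and stand apart from others. The larger share among the 1780 therefore follows in part from their choice. The most frequent pattern among the 1780 was another, with at least 1 ram that far from the median without the other ram of its number on the same side, at 934 cytosines (52.5%), beside 56.5% of all autosomal cytosines. The lone pair was the one that stood apart at 68.7% of the 707 cytosines, beside 79.6% of the 2131 autosomal cytosines with this pattern, and each of the 10 pairs was the lone pair at 16 or more. The rams of such lone pairs were at 20% to 80% in 97.9% of their values, and differed from each other by a median of 9.26 points. Both values also follow in part from the choice by the F test and from the limit of 20 points.

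The 6 cytosines with the largest F, no 2 of them within 1 Mb, are given by their values, with no further test. In all 6 whole pairs stood apart, and they do not stand for the 1780. Positions are on Oar_rambouillet_v1.0. At chromosome 16, position 64525379 on the minus strand, 2 pairs, 1 of each line, had levels of 43.8% to 62.5%, and the other 16 rams had 0% to 5.88%. At chromosome 23, position 30107346 on the minus strand, 3 pairs had 37.5% to 69.2% and the other 14 rams all had 0%. At both cytosines, pairs of both diet lines were among those with the middle level.

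At the other 4 cytosines a single pair had a middle level and 18 rams were near full methylation. On chromosome 2, position 162239204 on the plus strand, the rams of a control pair had 50% and 51.1%, and the rest had 93.5% to 100%. On chromosome 13, position 40111496 on the minus strand, the rams of a treatment pair had 36.0% and 36.7%, and the rest had 87.0% to 100%. On chromosome 25, position 26018609 on the minus strand, a control pair had 40% and 44.4%, beside 94.1% to 100%. On chromosome 1, position 231311249 on the plus strand, a control pair had 28.6% and 40%, beside 93.3% to 100%. Coverage at the 6 cytosines was 10 to 55 reads per ram, so that a level moved in steps of up to 10 points. The gene models at hand are of another assembly, and the cytosines were not placed relative to genes.

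The CG cytosines that the study lists as changed by diet in all 3 generations were described by the same measure. All 82 were among those tested. The list was chosen on these samples by diet, and is therefore not independent of them. Same-number rams differed there by 28.2 ± 3.34 points (10 pairs) and rams of different numbers by 32.4 ± 3.43 points (80 pairs, exact permutation p = 0.000175). The family share was 20.2%, beside 29.3% over all autosomal CG cytosines and 28.2% at the 6660 with both extreme states. These values at the 82 are not given without the pair that stood apart. Mean levels of the 82 were 12.6% to 84.1%, whereas 49.97% of the autosomal cytosines were at 90% to 100%. All cytosines are therefore not a like background for the counts that follow. The limma family test passed 3 of the 82, or 3.66%, beside 1.47% of all cytosines, and 27 of the 82 (32.9%) had an unadjusted p under 0.05, beside 18.4% of all. When the pair that stood apart was left out, 2 of the 82 passed, beside 0.396% of all, and 20 (24.4%) had an unadjusted p under 0.05, beside 6.41% of all. Over the 10 numbers left out in turn, 1 to 8 of the 82 passed. The 3, named after their values were seen, were position 41527658 on chromosome 14, where the treatment line held levels from 39.5% to 97.9% and the control line 83.3% to 100%, position 41408434 on chromosome 26, which the study places in CSGALNACT1, and position 77732744 on chromosome 8. CSGALNACT1 codes for an enzyme of chondroitin sulfate synthesis.

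Whether the number also marks a likeness across generations was examined with the F0 rams and the F1 pools, whose sperm was sequenced from pooled progeny of each F0 sire. Deviations of the F2 rams from their line were correlated with those of the F0 rams over 73867 shared autosomal CG cytosines. With the F0 ram of their own number r was 0.169 ± 0.072 (20 combinations), from 0.041 to 0.308, and with F0 rams of other numbers −0.042 ± 0.067 (80 combinations), from −0.167 to 0.196. All 20 same-number values were above 0, and 15 of the 80 others. With the F1 pool of their own number it was 0.208 ± 0.078, from −0.01 to 0.317, against −0.052 ± 0.051 over 71003 cytosines. Both differences had the smallest p that an exact permutation of the numbers within lines can give, 6.94e-05. Leaving out the number of the library that stood apart gave differences of 0.190 and 0.266, beside 0.211 and 0.260 with it.

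The F0 rams of the lines were twins of each other, but which numbers belong to twins is not stated in the sources, and consecutive numbers were compared as a description of the numbering. F2 rams whose numbers are consecutive across the lines had an r of 0.016 ± 0.089 (20 combinations), and those with other numbers −0.0032 ± 0.114 (80 combinations). This difference of 0.020 did not pass (exact permutation p = 0.6), also when class means were removed (0.032, exact permutation p = 0.208).

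**Figure D5:**
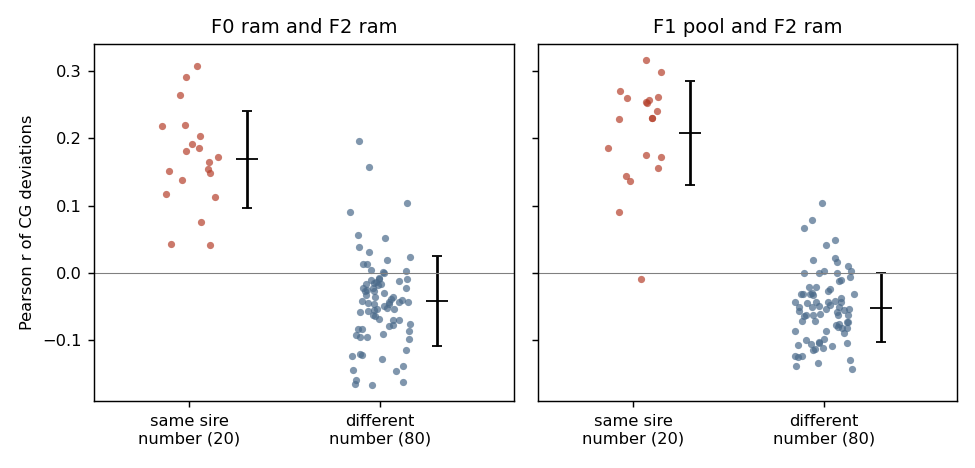
Pearson r of CG deviations of an F2 ram with an F0 ram (left) or an F1 pool (right) of its diet line, with the same sire number (red, 20 combinations) or a different one (blue, 80 combinations). Points are combinations, bars the mean and SD. The means are 0.169 against −0.042 on the left and 0.208 against −0.052 on the right.

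The lines were compared for how alike their same-number rams are. Relative to the mean of the different-number pairs of its line, the absolute difference of a same-number pair was 0.959 ± 0.185 in the treatment line and 0.802 ± 0.140 in the control line (5 against 5 pairs, exact permutation p = 0.167), and 0.959 and 0.912 without the pair that stood apart, which is a control pair (5 against 4 pairs, exact permutation p = 0.635). For squared differences less counting the ratios were 0.822 ± 0.169 and 0.605 ± 0.062, and 0.218 apart (5 against 5 pairs, exact permutation p = 0.0238, not adjusted over the 2 measures). Without that pair the ratios were 0.822 and 0.761 (exact permutation p = 0.540). Taken alone, the treatment line had a level difference of −0.51 points, which did not pass (exact permutation p = 0.475), and a difference in r of 0.175, which did (exact permutation p = 0.00635). The control line had −2.61 points and 0.323 (exact permutation p = 0.00106 for each). With the pair that stood apart left out, the control line had 9.84 points within and 10.8 points between numbers, beside 11.8 and 12.3 points in the treatment line.

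In RNA counts of the same 20 rams no likeness of same-number rams was detected. Sperm are transcriptionally silent and keep remnants of RNA from spermatid stages, and semen also holds leukocytes and shed epithelial cells, which carry far more RNA per cell. Before RNA extraction the study treated the cells with a somatic cell lysis buffer. It describes no such step for the DNA, and what other cells add to the CG levels was not tested. The libraries had 805831 to 13137757 counts, and 13577 of 28525 genes reached 15 counts or more in over 10 rams. Log2 total counts differed by 1.81 ± 0.80 (10 pairs) within and by 1.42 ± 1.01 (80 pairs) between numbers (exact permutation p = 0.195). On the log2 CPM scale (counts scaled to a common library size with TMM factors, prior count 2), same-number rams differed by 1.27 ± 0.53 (10 pairs), from 0.75 to 2.30, and rams of different numbers by 1.15 ± 0.39 (80 pairs), from 0.64 to 2.31. Exact permutation of the pairs gave p = 0.271 for this difference of 0.11, in the direction opposite to CG. Correlations of the RNA deviations were −0.236 ± 0.363 (10 pairs) and −0.083 ± 0.420 (80 pairs; exact permutation p = 0.336), and for 0 of the 20 rams was the most similar ram the one of its number.

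The outcome of the family test on counts depended on the method. The quasi-likelihood F test of edgeR called 0 of 13577 genes (0%), with 175 genes at an unadjusted p under 0.05. The likelihood ratio test of DESeq2 called 42, with 1110 genes at an unadjusted p under 0.05. Among pathway genes, 0 of the 13 tested genes of the DNA methylation machinery, 0 of 13 of the methionine cycle and 0 of 13 that the study names for its marks passed the edgeR test. DNMT1, the maintenance methyltransferase, had log2 CPM of 2.73 to 5.18 over the 20 rams, and same-number rams differed by 0.70 ± 0.50 (10 pairs) against 0.76 ± 0.53 (80 pairs). TET3, a dioxygenase that oxidizes methylcytosine, had 4.93 to 8.63, with 1.00 ± 0.80 and 0.94 ± 0.73. MAT2A, which makes S-adenosylmethionine, had 3.75 to 10.3, with 2.81 ± 1.53 within and 2.21 ± 1.56 between numbers.

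Markers of cell types differed widely between rams. Without the genes of the 4 lists the RNA difference was 0.110 (exact permutation p = 0.273), beside 0.111 with them. The difference in r was −0.152 (exact permutation p = 0.339), beside −0.153. Other genes of these cells remain in that comparison, and the part of cell types was not tested beyond the values given here. Summed, the 21 spermatid markers found in the table took 0.00893% to 1.34% of the counts of a ram, the 19 leukocyte markers 0.0217% to 2.91%, the 18 markers of squamous epithelium 0.0327% to 2.92% and the 12 of simple or secretory epithelium 0.0186% to 1.47%. PRM1, the protamine that packs sperm DNA, ranged from 5.14 to 10.6 log2 CPM, and PTPRC, the leukocyte antigen CD45, from 4.03 to 10.3. The averaged log2 CPM of a list differed by 2.68 within and 2.08 between numbers for leukocyte markers and by 1.96 and 1.68 for spermatid markers. For squamous epithelium it differed by 1.67 and 1.76, and for simple or secretory epithelium by 1.60 and 1.61, so that 2 lists lay higher within a number and 2 lower. Tested were 19 spermatid, 19 leukocyte, 15 squamous and 10 simple or secretory epithelium genes. Of these, 0 passed the edgeR family test, which called 0 of all 13577 genes. Only 1, DSC2 of the squamous list, had an unadjusted p under 0.05 in that test, beside 175 of all 13577. In these bulk samples fewer cells of a type and less RNA per cell cannot be told apart.

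Likeness in CG methylation and likeness in RNA were set side by side, and no relation passed. Over the 10 same-number pairs, r of CG deviations and r of RNA deviations had a Pearson correlation of 0.240 (permutation p = 0.506) and a Spearman rho of −0.006 (permutation p = 1). Without the 2 pairs farthest from the median of CG r, the Pearson correlation was −0.253 (permutation p = 0.537). Whether methylation and RNA differ in their likeness within a number was not tested as a difference between the assays.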

How the data were processed

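Per the labels and the methods of the study, the authors trimmed bisulfite reads with Trim Galore, aligned them to Oar_rambouillet_v1.0 with Bismark and Bowtie2, removed duplicates and kept cytosines with at least 10 reads in all samples of a generation. The deposited tables hold raw counts of covering and methylated reads per cytosine; 80 columns of unmethylated reads were not used. RNA reads were trimmed with Trimmomatic and aligned with STAR, and the deposited file holds raw counts per gene. Sequence differences between rams enter bisulfite levels as they are.

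A level is the percentage of methylated reads. At 10 reads it moves in steps of 10 points, and the counting variance of both rams was subtracted from squared differences. Same-number and different-number pairs were compared by exact permutation, two-sided, over all drawings of the rams of each line into pairs, jointly over lines. Each ram belongs to 1 same-number pair, and pairs of different numbers share rams. The family test per cytosine used limma 3.58.1 (eBayes with trend, 8 contrasts), that per gene edgeR 4.0.16 (robust quasi-likelihood), with DESeq2 1.42.0 as an alternative and R 4.3.3. Python 3.11.15 with numpy 2.4.6 and scipy 1.17.1 ran the rest. On simulated levels of 20000 cytosines limma recovered 96% of 200 with family differences of 4 SDs between rams, with 10 other calls. The simulated levels were normally distributed, without bounds and without read counts. They therefore do not give the power or the false calls of the test on the real levels.

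RNA samples were given the sire number of the methylation sample with the same ram number. The labels do not say that same-number replicates across groups share a batch. Cytosines were named as the 6 with the largest F, no 2 within 1 Mb; genes as up to 20 past the edgeR test, of which there were none, then members of fixed lists. The members and lists were chosen with earlier results of these data known. Alternatives were other coverage limits, reads drawn down to 10, both strands summed, 1 cytosine per 10 kb, centring, other transformations and tests, and leaving out each number.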

Additional observations from a re-analysis of the deposited data

Results flagged for a closer look

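A control library had a mean squared level difference to rams of other numbers, less counting, of 564 points squared, where the next control ram had 414; the gap is 0.639 of the range of the 10 control rams, above the critical value of 0.466. In RNA, a treatment ram differed from rams of other numbers by 1.59 on average on the log2 CPM scale, where the next treatment ram had 1.19, a gap of 0.633 of the range. A control ram had 1.585, so that the treatment ram stood apart in its own line only. Among 10 such groups of values, chance flags about 1 in 20.

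The squared level difference of same-number pairs relative to other pairs was 0.218 higher in the treatment line than in the control line (0.822 against 0.605, 5 against 5 pairs, exact permutation p = 0.0238). Without the pair of the control library above it was 0.0615 higher (exact permutation p = 0.540). The cause was not tested.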

How the results depend on the processing

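Of 209 alternative values, 179 kept their direction and their side of the threshold or, for counts, stayed within 1.5 times the main count. With both strands summed, which left 711 autosomal CG sites, the level difference was −4.03 points (exact permutation p = 0.0636), the difference in r 0.228 (exact permutation p = 0.0597), the family share 43.2% (exact permutation p = 0.0793) and the difference in shared states 7.5 points (exact permutation p = 0.225), so that none of the 4 passed. Of these 711 sites, 61 lay outside the 20 dense windows, where coverage averaged 200.0 reads against 26.4 elsewhere. The setting therefore compared a different set of sites, mostly from those windows, and not the main set with strands joined. With strands kept apart, the level difference was −0.51 points in the treatment line alone and did not pass (exact permutation p = 0.475). Leaving out each number in turn gave level differences of −1.90 to −0.81 points, differences in r of 0.194 to 0.278, family shares of 21% to 33.0%, differences in shared states of 6.64 to 7.69 points, RNA differences of 0.06 to 0.17 on the log2 scale and differences in RNA r of −0.266 to −0.105.

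The limma family test passed 1780 autosomal cytosines, 1027 without a trend, 258 on the arcsine scale, 205 of 711 with strands summed, 0 with the quasi-binomial test, and 483 (without the pair that stood apart) to 3937 when each number was left out. Of the 82 cytosines of the study list, 1 to 8 passed when each number was left out, an alternative chosen after seeing the data. The RNA test called 0 genes with edgeR, also when any number was left out, and 42 with DESeq2, which was run on all numbers only. Chosen after seeing the data, leaving out the pair that stood apart gave 5 chromosomes past the test of absolute differences, a line difference in the squared ratio of 0.0615, and differences that no longer passed of −0.42 points in level outside the state-variable cytosines and of −1.39 points in the share that differ by at least 20 points. Without dense windows the distance difference at 1 base was 64.1 points squared. With class means also removed, the differences were 51.4 at 1 base, 10.55 at 2 to 100 bases, 8.04 above that up to 1 kb, 4.64 at 1 to 10 kb, 2.18 at 10 to 100 kb and 0.798 at 100 kb to 1 Mb. The CG and RNA relation over pairs turned to −0.253 without the 2 farthest pairs. The causes were not tested.

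Replicate numbers follow accession order. They do not link the F2 rams to their RNA samples, while F0 rams and F1 pools of a line with the same replicate number share a sire number. The ram and sire numbers define the comparisons and cannot also serve as a block, and no other paired analysis was made. Median coverage of 12 to 37 reads limits single levels, and 2 rams per number limit the family test.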
